A study of Mus musculus with 12 samples.

Results

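Bone morphogenetic protein (BMP) signalling in the colon was followed through 9 genes: the ligands Bmp2, Bmp4 and Bmp7, the secreted antagonist Grem1, the inhibitory Smads Smad6 and Smad7, and the Id genes Id1, Id2 and Id3. The genes were taken by name, all 9 matched among 48448 genes with a value, and all 9 passed the filter on low values that left 16970 genes for testing. RNA was sequenced from 12 colon samples of C57BL/6 mice with colitis-associated cancer, 3 in each of 4 groups: adjacent colon and tumours of control mice that carry a floxed Synbindin allele (flox), and the same tissues of mice whose intestinal epithelium lacks Synbindin (ΔIEC). The gene of Synbindin, Trappc4, encodes part of the complexes that tether transport vesicles. All 4 groups share the strain and the cancer model. The adjacent samples are labelled as epithelium and are called adjacent colon here. The sources used here name no tumour-inducing agent, no driver of the deletion, and neither age nor sex of the mice. Nothing says that the replicates of a group are separate animals, and a p-value here speaks for the variation among these libraries, which may be technical. The sample codes of tumour and adjacent colon share a stem for 5 of 6 same-numbered pairs, and the labels do not say that a stem is an animal.

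In the normal colon BMP ligands come largely from the mesenchyme under the epithelium and act towards the crypt top, where they restrain stem cell renewal and favour differentiation. A ligand binds type I and type II serine/threonine kinase receptors, which phosphorylate Smad1, Smad5 and Smad9; with Smad4 these enter the nucleus and switch on target genes, among them the Id genes and the feedback inhibitors Smad6 and Smad7. Gremlin 1, the product of Grem1, is secreted by stromal cells near the crypt base and binds BMP2, BMP4 and BMP7 so that they cannot reach their receptors. Id proteins carry a helix-loop-helix but no DNA-binding region, and they hold E proteins such as Tcf3, Tcf4 and Tcf12 away from DNA.

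In tumours, the ligand Bmp7 and the E protein inhibitor Id2 were higher than in adjacent colon in both genotypes, and Bmp4, Grem1 and Id3 were higher when the genotypes were averaged. Bmp7 stood at 2.28 ± 0.792 FPKM (fragments scaled to transcript length and library total; SD, n = 6) in adjacent colon and 10.7 ± 1.68 in tumours, a ratio of means of 4.70. Id2 stood at 13.2 ± 2.93 and 33.0 ± 9.76 FPKM, a ratio of 2.51. Id1, the most abundant of the 9, Bmp2, Smad6 and Smad7 did not pass the test between tissues. No member passed the test between ΔIEC and flox mice in either tissue.

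Bases upstream of the RefSeq start (GRCm38.p6) are shown as far as they lie outside annotated exons, to set 3 genes that were higher in tumours (Bmp4, Grem1, Id2) beside 1 that did not pass (Smad6). Windows matched 5 of the 9 members; the Id3 window lies inside its annotated first exon and is not shown. The Id2 window lies upstream of Id2-201, the only Id2 transcript with a deposited value, but inside the gene's span. Its nearer bases are exon of the longer transcript Id2-202 and are left out, and the 89 bases shown are intron of that transcript. How far Id2-202 is used cannot be read from these values. Each line runs 5′ to 3′ in the direction of transcription, and capitals mark GGCGCC, the GC-rich core of BMP-responsive elements to which Smad1 and Smad5 bind.
Bmp4, chr14:46390670-46390919, minus strand, 250 bases: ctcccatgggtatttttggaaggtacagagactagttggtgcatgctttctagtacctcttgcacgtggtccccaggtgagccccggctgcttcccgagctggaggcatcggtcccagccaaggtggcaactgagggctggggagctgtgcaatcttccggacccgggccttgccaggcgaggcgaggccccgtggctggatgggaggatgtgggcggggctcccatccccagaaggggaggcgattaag
Grem1, chr2:113758649-113758898, minus strand, 250 bases: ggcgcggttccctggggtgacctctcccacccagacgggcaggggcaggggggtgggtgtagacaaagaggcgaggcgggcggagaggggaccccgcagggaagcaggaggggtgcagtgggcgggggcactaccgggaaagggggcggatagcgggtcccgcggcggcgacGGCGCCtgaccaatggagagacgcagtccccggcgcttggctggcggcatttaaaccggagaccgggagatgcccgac
Id2, chr12:25096254-25096342, minus strand, 89 bases: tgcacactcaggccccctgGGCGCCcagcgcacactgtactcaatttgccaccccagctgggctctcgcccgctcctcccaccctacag
Smad6, chr9:64022060-64022309, minus strand, 250 bases: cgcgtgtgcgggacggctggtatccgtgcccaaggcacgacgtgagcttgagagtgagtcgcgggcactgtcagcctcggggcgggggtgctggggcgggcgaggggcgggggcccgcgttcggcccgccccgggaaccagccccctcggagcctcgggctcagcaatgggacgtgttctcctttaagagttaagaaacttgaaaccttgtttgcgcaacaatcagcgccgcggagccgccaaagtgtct
Both strands of the 250 upstream bases were searched. GGCGCC, which reads the same on both strands, was found once in Grem1 and once in Id2 and not in Bmp4, Smad6 or Id3; 9.59% of 32851 windows of this length hold it. The palindrome GTCTAGAC, a Smad-binding element, was in none of the 5 windows and in 0.167% of all windows. The BMP-responsive element itself, the first motif followed 5 bases on by GTCT, was in none of the 5 and in 0.07% of all. These matches describe the letters in the window and nothing about binding.

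The 12 libraries were first checked against their labels. For Trappc4, ΔIEC libraries all lay below the flox libraries of their tissue, at 17.0 ± 0.285 and 11.1 ± 1.30 FPKM (SD, n = 3) in flox and ΔIEC adjacent colon and at 19.0 ± 1.73 and 11.3 ± 1.39 FPKM in the tumours (averaged log2 difference -0.64, limma adjusted p = 0.185). Although the adjacent samples are labelled as epithelium, stromal and muscle RNA was present. A difference in how tumours and adjacent samples were taken cannot be told apart here from a difference between the tissues. The summed FPKM of 12 fibroblast markers ran from 65.8 to 350.3 in adjacent libraries and from 330.2 to 680.7 in tumours, that of 10 smooth muscle markers from 29.5 to 350.6 over all libraries, and none of these 22 markers was at 0 in any library. The 12 epithelial markers summed to 7362 to 12507 FPKM in adjacent colon and 5023 to 7339 in tumours. The 5 HOX genes of the distal hindgut that were found summed to 6.84 to 185.0 FPKM in adjacent libraries and to 125.4 to 167.0 in tumours. Squamous keratinocyte markers summed to 396.8 and 380.3 FPKM in flox tumours 1 and 2 and to at most 44.1 in the other 10 libraries. In such bulk samples, fewer cells of a type and less RNA per cell cannot be told apart. Read depth is unknown from FPKM, and no counting interval is given.

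**Figure D1:**
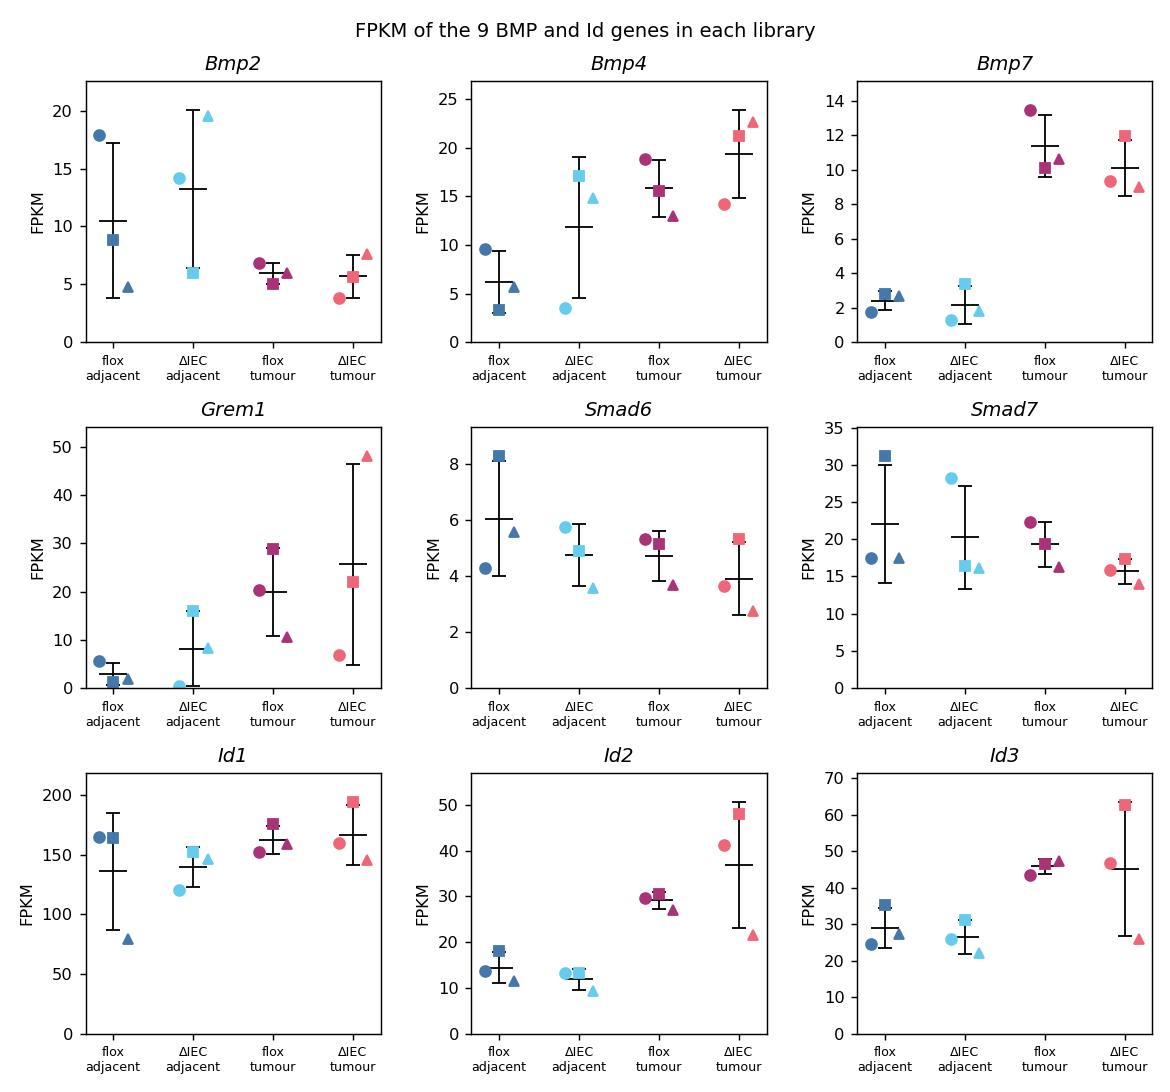
FPKM of the 9 genes in each library (the marker shape gives the replicate, 1 to 3); black bars show group mean and SD, n = 3; every vertical axis is linear and starts at 0. For Bmp7 and Id2 all 6 tumour libraries lie above all 6 adjacent ones, while the groups of Id1, Smad6 and Smad7 overlap.

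The ligands differed from one another in where they were high. Bmp7, an epithelial and kidney-forming ligand in development (ENSMUSG00000008999, GRCm38 chromosome 2, 172868012 to 172940321, minus strand), was at 1.75, 2.81 and 2.68 FPKM in flox adjacent colon and at 1.28, 3.38 and 1.81 in ΔIEC adjacent colon. Its tumour values were 13.4, 10.1 and 10.6 FPKM in flox mice and 9.32, 11.9 and 9.02 in ΔIEC mice. Every tumour library was above every adjacent library, and the spread within a group was small beside the gap. The log2 difference was 1.87 (SE 0.237, limma adjusted p = 5.57e-04) in flox mice and 1.86 (SE 0.237, adjusted p = 0.00119) in ΔIEC mice. With the genotypes averaged it was 1.86 (SE 0.168, adjusted p = 3.60e-05), and an exact permutation test over the 12 libraries (two-sided, 6 against 6) had p = 0.00216, the smallest it can give. The coding transcript Bmp7-201 held 88.8% of the gene's FPKM and a retained-intron transcript the rest. Without flox tumours 1 and 2, the libraries rich in squamous markers, the averaged difference was 1.82 (adjusted p = 0.00127).

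Bmp4, the ligand of the subepithelial mesenchyme (ENSMUSG00000021835, chromosome 14, 46383520 to 46390669, minus strand), was at 9.53, 3.27 and 5.70 FPKM in flox adjacent colon and at 3.51, 17.1 and 14.8 in ΔIEC adjacent colon. In tumours it was at 18.9, 15.5 and 13.0 FPKM in flox mice and at 14.2, 21.3 and 22.6 in ΔIEC mice. The flox tumours were all above the flox adjacent libraries, whereas in ΔIEC mice 2 of the 3 adjacent libraries reached into the range of the tumours. The averaged log2 difference was 1.09 (SE 0.351, limma adjusted p = 0.0248), where flox mice alone gave 1.31 (adjusted p = 0.0619) and ΔIEC mice 0.88 (adjusted p = 0.208). The ΔIEC value was 0.24 without ΔIEC adjacent 1. The averaged call was lost without flox adjacent 2 (adjusted p = 0.0596), flox tumour 1 (0.0551), ΔIEC tumour 2 (0.0517) or ΔIEC tumour 3 (0.0523), and without flox tumours 1 and 2 together (0.141). The coding transcripts Bmp4-201 and Bmp4-202 share most of their bases and held 50.6% and 41.2% of the FPKM, so their split is uncertain.

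Bmp2, which colonocytes near the lumen make (ENSMUSG00000027358, chromosome 2, 133552159 to 133562885, plus strand), went the other way without passing the test. It was at 17.9, 8.82 and 4.79 FPKM in flox adjacent colon and 14.1, 6.00 and 19.6 in ΔIEC adjacent colon, against 6.86, 5.06 and 5.93 in flox tumours and 3.85, 5.66 and 7.58 in ΔIEC tumours. The 6 tumours lay close together, and the adjacent libraries spread from the tumour level to well above it. The averaged log2 difference was -0.78 (SE 0.325, limma adjusted p = 0.0688). It passed the test without flox adjacent 3 (-0.98, adjusted p = 0.0241) or ΔIEC adjacent 2 (adjusted p = 0.0173), the adjacent libraries lowest in Bmp2. The adjacent libraries highest in Bmp2 were ΔIEC adjacent 3 and flox adjacent 1. They also had the highest distal HOX sums of their tissue, 130.1 and 185.0 FPKM, and flox adjacent 3 was lowest in both. ΔIEC adjacent 2 had the next highest sum, 61.2 FPKM, with Bmp2 at only 6.00. The tumours had sums of 125.4 to 167.0 FPKM with Bmp2 at 3.85 to 7.58. The part of colon region in the Bmp2 difference was not tested.

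Grem1, the antagonist (ENSMUSG00000074934, chromosome 2, 113746164 to 113758646, minus strand), had the widest range of the 9 genes on the log scale. Its adjacent values were 5.52, 1.28 and 1.79 FPKM in flox mice and 0.337, 15.9 and 8.25 in ΔIEC mice. Its tumour values were 20.3, 28.8 and 10.5 FPKM in flox mice and 6.93, 21.9 and 48.2 in ΔIEC mice. The flox tumours lay above all flox adjacent libraries, while ΔIEC tumour 1 lay below ΔIEC adjacent 2 and 3. The averaged log2 difference was 2.15 (SE 0.662, limma adjusted p = 0.0213), with 2.49 (SE 0.937, adjusted p = 0.0616) in flox and 1.80 (SE 0.937, adjusted p = 0.172) in ΔIEC mice. The ΔIEC value was 0.73 without ΔIEC adjacent 1. Without flox tumours 1 and 2 the averaged difference was 1.77 and was no longer called (adjusted p = 0.145).

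Grem1 and Bmp4 followed the fibroblast markers from library to library. Over the 12 libraries, whose summed FPKM ran from 534806 to 821487 and was mostly lower in tumours, the correlation of the deviations from the group means with the mean level of the 12 fibroblast markers was 0.96 for Grem1 and 0.96 for Bmp4, against 0.30 for Bmp7 and -0.37 for Id2. The link is not particular to fibroblasts: with the smooth muscle level it was 0.79 for Grem1 and 0.80 for Bmp4, and with the epithelial level -0.48 and -0.74. The adjacent libraries with the most fibroblast RNA, ΔIEC adjacent 2, ΔIEC adjacent 3 and flox adjacent 1 (350.3, 284.9 and 238.5 FPKM summed), were also the 3 adjacent libraries highest in Grem1 and in Bmp4. With the fibroblast level as a covariate, an alternative chosen after the data were seen, the averaged tumour difference was 0.15 (SE 0.273, limma adjusted p = 0.70) for Grem1 and 0.04 (SE 0.158, adjusted p = 0.875) for Bmp4. In that fit Bmp7 was at 1.71 (adjusted p = 0.00132), Id2 at 1.46 (adjusted p = 0.0035) and Id3 at 0.85 (adjusted p = 0.0351). Level per fibroblast and number of fibroblasts cannot be told apart here. Nor can either be told apart from how tumours and adjacent samples were taken.

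**Figure D2:**
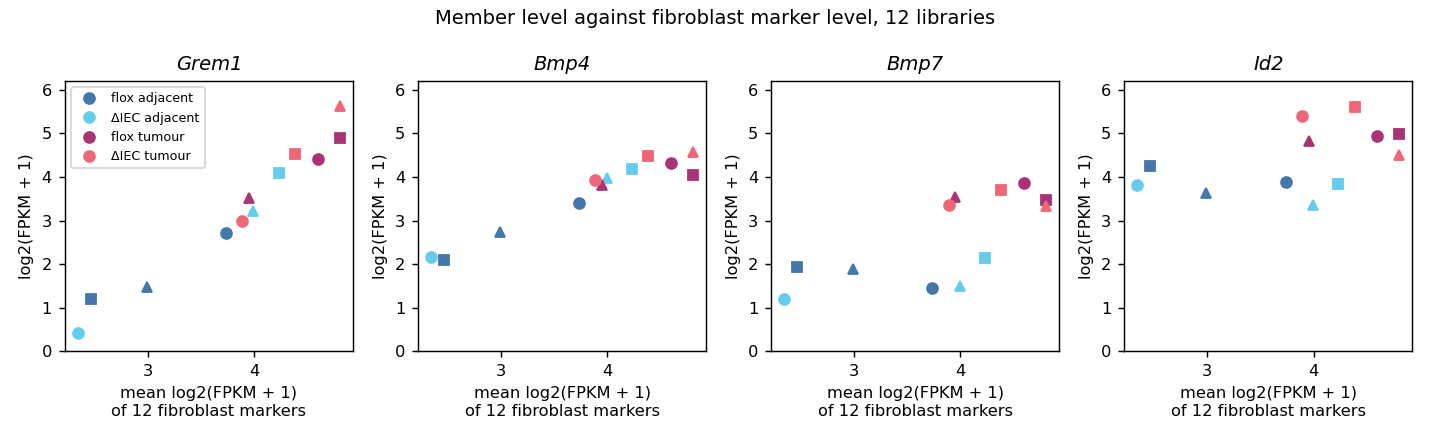
Level of Grem1, Bmp4, Bmp7 and Id2 (log2(FPKM + 1), vertical) against the mean log2(FPKM + 1) of 12 fibroblast markers (horizontal) in the 12 libraries; colours are groups and shapes replicates 1 to 3. Grem1 and Bmp4 climb with the marker level across all groups, whereas for Bmp7 and Id2 the 6 tumour libraries sit above all adjacent ones, also above the adjacent library with 350.3 FPKM of summed markers.

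The inhibitory Smads did not pass the test. Smad7, which blocks the type I receptors of both the BMP and the TGF-beta branch (ENSMUSG00000025880, chromosome 18, 75367529 to 75395935, plus strand), was at 17.5, 31.2 and 17.4 FPKM in flox adjacent colon and 28.3, 16.4 and 16.1 in ΔIEC adjacent colon. It was at 22.4, 19.3 and 16.2 FPKM in flox tumours and 15.9, 17.3 and 14.0 in ΔIEC tumours. Only flox adjacent 2 and ΔIEC adjacent 1 stood above the rest of the 12 libraries, and those are also the adjacent libraries lowest in Grem1. Smad6, which acts mainly on the BMP branch (ENSMUSG00000036867, chromosome 9, 63953076 to 64022059, minus strand), was at 4.29, 8.30 and 5.57 FPKM in flox adjacent and 5.76, 4.90 and 3.57 in ΔIEC adjacent colon. Its tumour values were 5.33, 5.16 and 3.68 FPKM in flox mice and 3.64, 5.32 and 2.76 in ΔIEC mice, within the adjacent range but for ΔIEC tumour 3. The averaged log2 differences were -0.22 for Smad7 (95% interval -0.63 to 0.18, limma adjusted p = 0.334) and -0.26 for Smad6 (-0.66 to 0.14, adjusted p = 0.26). Both signs turned when the protein-coding genes of each library were scaled to 1 shared sum, to 0.14 and 0.06. That scaling also moved the median of all genes to 0.29. Less this shift the differences were -0.15 for Smad7 and -0.23 for Smad6, which were not tested against it. No direction is given for this pair.

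Of the Id genes among the members, Id2 and Id3 were higher in tumours and Id1 did not pass. Id2 (ENSMUSG00000020644, chromosome 12, 25093799 to 25097140, minus strand) was at 13.7, 18.1 and 11.5 FPKM in flox adjacent and 13.2, 13.3 and 9.24 in ΔIEC adjacent colon. Its tumour values were 29.7, 30.6 and 27.1 FPKM in flox mice and 41.2, 48.0 and 21.5 in ΔIEC mice, all above the highest adjacent library. The log2 difference was 0.99 (SE 0.271, limma adjusted p = 0.0177) in flox mice and, in ΔIEC mice, 1.498 (SE 0.271, adjusted p = 0.00379); the interaction, 0.51, did not pass. Averaged, it was 1.24 (SE 0.191, adjusted p = 4.84e-04; exact permutation p = 0.00216, the smallest it can give). The flox call was lost without flox adjacent 3 (adjusted p = 0.0655), flox tumour 1 (0.0501) or flox tumour 2 (0.0514), and without both of those tumours (0.196), while the averaged call then held (1.19, adjusted p = 0.00929).

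Id3 (ENSMUSG00000007872, chromosome 4, 136143497 to 136145755, plus strand) was at 24.5, 35.2 and 27.3 FPKM in flox adjacent and 26.0, 31.3 and 22.1 in ΔIEC adjacent colon. In tumours it was at 43.5, 46.7 and 47.4 FPKM in flox mice and 46.7, 62.8 and 26.1 in ΔIEC mice. ΔIEC tumour 3 was the single tumour library inside the adjacent range. It was also the lowest tumour in Id2, Id1, Bmp7, Smad6 and Smad7, and the highest in Bmp2, Bmp4 and Grem1. Protein-coding genes held 55.4% of its summed FPKM, the lowest share of the 12 libraries, against 62.3% to 71.8% in the others. The averaged log2 difference was 0.67 (SE 0.19, limma adjusted p = 0.0142), and neither genotype alone passed, at 0.66 (adjusted p = 0.0792) and 0.68 (adjusted p = 0.0821). Leaving out ΔIEC tumour 3 brought the ΔIEC difference to 1.02, past the threshold (adjusted p = 0.00539), leaving out ΔIEC tumour 2 brought it to 0.40, and without flox tumours 1 and 2 the averaged call was lost (0.69, adjusted p = 0.0679). The coding transcript Id3-201 held 72.6% of the FPKM and a retained-intron transcript 26.2%. Over the 12 libraries the deviations of Id2 and Id3 from their group means had a correlation of 0.92.

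Id1 (ENSMUSG00000042745, chromosome 2, 152736251 to 152737410, plus strand), the best known direct BMP target, was the most abundant of the 9 genes in every library. It was at 164.9, 163.9 and 79.7 FPKM in flox adjacent colon, 120.4, 152.0 and 146.1 in ΔIEC adjacent colon, 152.3, 175.5 and 159.1 in flox tumours and 159.8, 194.5 and 145.7 in ΔIEC tumours. Apart from the low value of flox adjacent 3, the groups overlapped. The averaged log2 difference was 0.29 (95% interval -0.10 to 0.68, limma adjusted p = 0.198). It was called in the same direction with quantile normalization (0.67, adjusted p = 0.0126) and with protein-coding genes rescaled (0.67, adjusted p = 0.0137). Flox adjacent 3 was also the library lowest in distal HOX genes, with a sum of 6.84 FPKM.

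**Figure D3:**
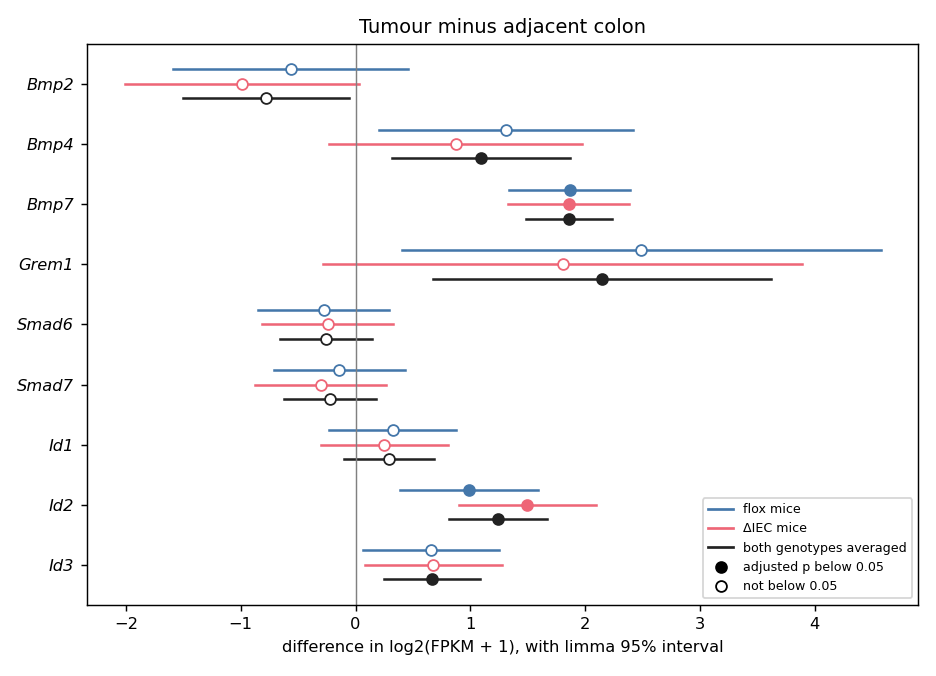
Tumour minus adjacent difference in log2(FPKM + 1) for each gene with the 95% interval of limma, in flox mice, in ΔIEC mice and averaged over both; filled points have an adjusted p below 0.05. Bmp7 and Id2 are filled in all 3 fits, and Bmp4, Grem1 and Id3 in the averaged fit. The averaged Smad6 and Smad7 signs turn when protein-coding genes are rescaled, which moves the median of all genes to 0.29.

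Against all genes tested, the counts read as follows. With the genotypes averaged, 5 of 9 members were called, all higher, where 50.6% of all genes were called and 24.2% were called higher. In flox mice 2 of 9 were called, both higher (36.3% of all genes called, 16.6% higher), and in ΔIEC mice 2 of 9 (29.4% of all genes called, 13.9% higher). The share of members called, in either direction, is near that of all genes in the averaged comparison and below it within each genotype. The averaged calls all lie on the higher side. The median averaged difference was 0.67 for the members and -0.02 for all genes. Tumour and adjacent libraries did not overlap for 2 of 9 members, both higher, where 13.5% of all genes were wholly higher and 15.8% wholly lower. Within flox mice 5 of 9 members were wholly higher (26.4% of all genes, with 27.1% wholly lower) and within ΔIEC mice 2 of 9 (20.8% and 22.9%). With protein-coding genes rescaled the median of all genes moved to 0.29 in the averaged comparison, 0.36 in flox and 0.22 in ΔIEC mice. The share of all genes called higher was then 45.2% averaged, 38.8% in flox and 26.0% in ΔIEC mice, and called lower 13.2%, 9.83% and 8.37%, against 26.4%, 19.7% and 15.5% called lower without rescaling. In that averaged fit Bmp7, Id2, Bmp4, Grem1, Id3 and Id1 were called higher against 0. Less the shift of all genes, their differences were 1.87, 1.31, 1.14, 2.14, 0.75 and 0.38. For Bmp2, Smad6 and Smad7 the values less the shift were -0.73, -0.23 and -0.15. None of these values was tested against the shift.

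By mean FPKM the 9 genes stood in adjacent colon in the order Id1, Id3, Smad7, Id2, Bmp2, Bmp4, Grem1, Smad6 and Bmp7, and in tumours in the order Id1, Id3, Id2, Grem1, Bmp4, Smad7, Bmp7, Bmp2 and Smad6. Bmp7 was the least abundant ligand in adjacent colon, below Bmp2 and Bmp4 (11.9 ± 6.23 and 8.99 ± 5.90 FPKM, SD, n = 6), while in tumours Bmp4 (17.6 ± 3.93) and Bmp7 (10.7 ± 1.68) were both above Bmp2 (5.83 ± 1.32). The tumour ranges of Bmp2 and Bmp7 did not overlap, at 3.85 to 7.58 and 9.02 to 13.4 FPKM. Neighbours in order that did not overlap either were Id1 and Id3 in both tissues, Smad6 and Bmp7 in adjacent colon, and Smad7 and Bmp7 in tumours. The remaining neighbours overlapped in range.

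The comparison of ΔIEC with flox mice asks whether the epithelial deletion changes these genes. No member was called in adjacent colon, in tumours, averaged over both tissues or in the interaction, and 0% of all genes were called in each of these 4 comparisons by limma, with 4.14%, 1.87%, 2.69% and 2.64% of genes at an unadjusted p below 0.05. Trappc4 itself was not called, although its ΔIEC libraries all lay below the flox libraries of their tissue. Its log2 difference was -0.59 in adjacent colon (limma adjusted p = 0.931) and -0.64 averaged (adjusted p = 0.185). A genotype difference of that size can therefore go uncalled here. Without ΔIEC adjacent 1, 299 genes were called in adjacent colon (1.76%), no member among them. The ΔIEC and flox libraries overlapped for all 9 members in each tissue, where 2.56% of all genes were wholly higher and 5.14% wholly lower in adjacent colon, 3.03% and 3.74% in tumours, and 0.0177% and 0.0354% over both tissues. In adjacent colon the largest differences among the members were 0.78 for Grem1 (95% interval -1.31 to 2.87, limma adjusted p = 0.935) and 0.70 for Bmp4 (-0.40 to 1.80, adjusted p = 0.931). Without ΔIEC adjacent 2 they were 0.024 and 0.33, and without ΔIEC adjacent 1 they were 1.86 and 1.34. In both genes ΔIEC adjacent 2 and 3 were above all 3 flox adjacent libraries, while ΔIEC adjacent 1 was below flox adjacent 1 and 3. In tumours the largest were -0.27 for Smad7 (-0.85 to 0.30, adjusted p = 1) and 0.26 for Bmp4 (-0.84 to 1.37, adjusted p = 1). Averaged over both tissues, with 6 libraries a genotype, the interval was -0.53 to 0.22 for Bmp7, -0.42 to 0.43 for Id2, -0.33 to 0.46 for Id1 and -0.54 to 0.31 for Id3. For Grem1 it was -1.04 to 1.91, wide enough to hold a sizeable change either way. The tumour difference of a gene was not shown to differ between genotypes: the interaction ran from -0.68 for Grem1 (SE 1.32) to 0.51 for Id2 (SE 0.383), each with a limma adjusted p of 1.00.

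**Figure D4:**
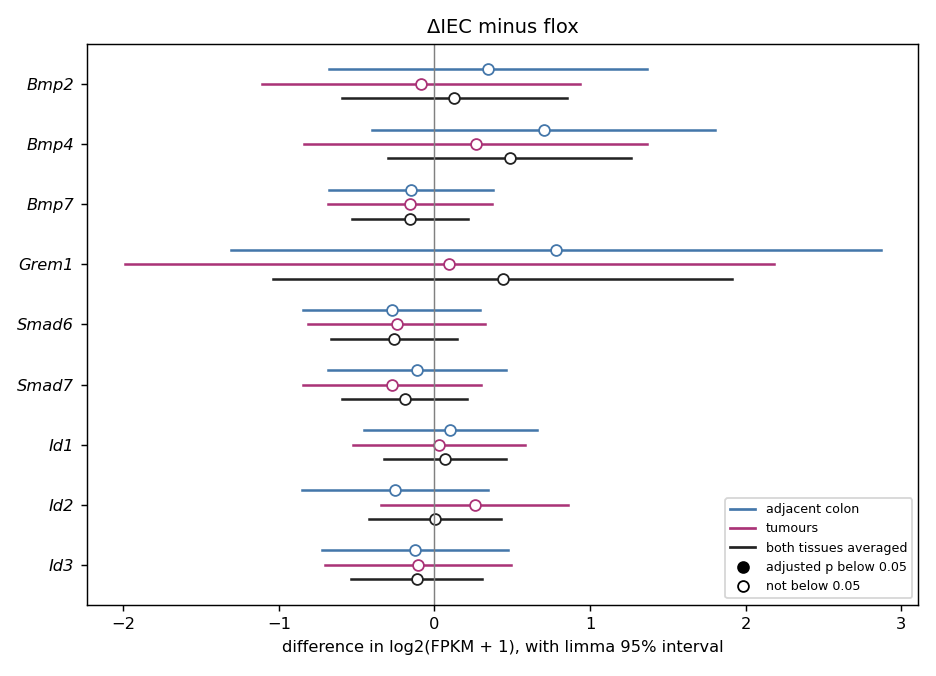
ΔIEC minus flox difference in log2(FPKM + 1) for each gene with the 95% interval of limma, in adjacent colon, in tumours and averaged over both; open points have an adjusted p of 0.05 or more. All points are open and all intervals hold 0.

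Other genes of the pathway were read from lists in 5 roles, chosen with earlier results of these data known. In the list of other ligands, which also holds the protease Bmp1, 3 of 8 tested of 13 listed were called higher and 2 lower in tumours with the genotypes averaged, where 24.2% and 26.4% of all genes were. Inhba, which encodes the subunit of activin A, was at 1.12 ± 0.815 FPKM (SD, n = 6) in adjacent colon and 16.4 ± 3.44 in tumours (log2 difference 3.11, limma adjusted p = 2.91e-05). Its relative Inhbb was at 0.362 ± 0.175 and 2.40 ± 0.527 FPKM, and Bmp1, a protease that cleaves procollagen and the BMP antagonist chordin and is no BMP ligand, at 2.30 ± 0.527 and 8.49 ± 1.70. Bmp3, an atypical member that opposes other BMPs, fell from 10.7 ± 9.29 to 1.07 ± 0.646 FPKM (log2 difference -2.14, adjusted p = 0.00414). All adjacent libraries lay above all tumours for Bmp3, although the adjacent values themselves ran from 2.61 to 26.2 FPKM. Bmp8a was also lower in tumours, at 3.61 ± 1.12 FPKM in adjacent colon and 1.25 ± 0.277 in tumours, with no overlap of libraries.

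Of 10 receptors and co-receptors tested of 11 listed, 3 were called higher and 2 lower, where 24.2% and 26.4% of all genes were. The median turned from -0.07 to 0.24 with protein-coding genes rescaled, where that of all genes was 0.29. With the fibroblast level as a covariate 1 was called higher and 3 lower, where 15.6% and 17.7% of all genes were. The type II receptor Bmpr2 was at 12.5 ± 1.03 FPKM in adjacent colon and 20.1 ± 2.14 in tumours (log2 difference 0.64, limma adjusted p = 8.60e-05), with no overlap of libraries. The endothelial co-receptor Eng was at 3.89 ± 2.86 and 8.44 ± 2.79 FPKM (adjusted p = 0.031), a call lost without flox tumours 1 and 2 (0.151). The co-receptors Rgmb and Neo1 were lower in tumours, at 19.5 ± 2.90 and 10.5 ± 3.08 FPKM and at 16.2 ± 2.40 and 10.8 ± 2.11; Neo1 lost its call with protein-coding genes rescaled (-0.20, adjusted p = 0.21). The type I receptor Bmpr1a did not pass, at 32.5 ± 6.65 and 28.6 ± 1.88 FPKM (adjusted p = 0.363).

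Secreted antagonists and membrane modulators held 7 genes called higher and 1 lower of 13 tested of 18 listed, with a median difference of 0.75. Of all genes 24.2% were called higher and 26.4% lower. Htra1, a secreted protease that binds TGF-beta family ligands, was at 9.34 ± 5.26 FPKM in adjacent colon and 62.1 ± 27.6 in tumours (log2 difference 2.73, limma adjusted p = 9.73e-04). Follistatin (Fst), which traps activins and some BMPs, was at 0.334 ± 0.357 and 4.24 ± 2.43 FPKM, and Fstl1 at 6.87 ± 4.76 and 29.4 ± 8.73. The pseudoreceptor Bambi, which binds receptors but cannot signal, was at 0.955 ± 0.229 and 7.60 ± 4.10 FPKM (log2 difference 2.01, adjusted p = 3.06e-04). All 6 tumours were above all 6 adjacent libraries for each of these 4 genes. The classical antagonists Nog and Chrd were scarce, with at most 0.321 and 1.01 FPKM in any library.

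Within the cell, 4 Smads or their regulators were called higher and 3 lower of 14 tested of 15 listed, where 24.2% and 26.4% of all genes were. With protein-coding genes rescaled the counts were 7 and 2 and the median turned from -0.09 to 0.27. In that fit 45.2% of all genes were called higher and 13.2% lower, with a median of 0.29. Smad5, a receptor-activated Smad of the BMP branch, was at 12.6 ± 1.51 FPKM in adjacent colon and 19.2 ± 1.61 in tumours (log2 difference 0.57, limma adjusted p = 3.59e-04), and its partner Smad1 did not pass, at 28.9 ± 4.49 and 24.9 ± 2.06. Skil, a co-repressor of Smads, was at 29.3 ± 8.16 and 45.0 ± 4.74 FPKM (adjusted p = 0.0115), a call lost without flox tumours 1 and 2 (0.0785). Tob1, an anti-proliferative protein that binds Smads, was lower in tumours, at 62.7 ± 13.1 and 27.2 ± 5.22 FPKM, as was the ubiquitin ligase Nedd4l, at 12.4 ± 3.87 and 4.84 ± 0.524. Without flox tumours 1 and 2 the averaged median of this list was -0.10 and that of the receptors -0.17, against -0.02 for all genes.

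Of other BMP targets and the E proteins that Id proteins bind, 9 of 14 tested of 16 listed were called higher and 0 lower, with a median of 0.82, where 24.2% and 26.4% of all genes were called. With protein-coding genes rescaled 12 were called higher (45.2% of all genes), and with the fibroblast level as a covariate 5 higher and 1 lower (15.6% and 17.7%). The E proteins Tcf4 and Tcf3 were at 54.5 ± 13.1 and 150.6 ± 30.1 FPKM and at 13.5 ± 2.29 and 29.2 ± 4.47 in adjacent colon and tumours (log2 differences 1.46 and 1.06, limma adjusted p = 1.13e-04 and 6.80e-05). The homeobox gene Msx1 was at 0.172 ± 0.202 and 2.29 ± 1.38 FPKM, the Notch and BMP target Hey1 at 0.516 ± 0.444 and 1.98 ± 0.596, and the transcription factor Runx1 at 11.2 ± 1.72 and 28.0 ± 7.02. Tcf4, Tcf3 and Runx1 did not overlap between tissues. Id4, an Id gene that is not among the members, was at 2.68 ± 1.06 FPKM in adjacent colon and 1.35 ± 0.730 in tumours. It was not called in this comparison. Without flox tumours 1 and 2 the averaged median of the list was 0.74. No gene of the 5 lists was called in any comparison of genotypes.

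**Figure D5:**
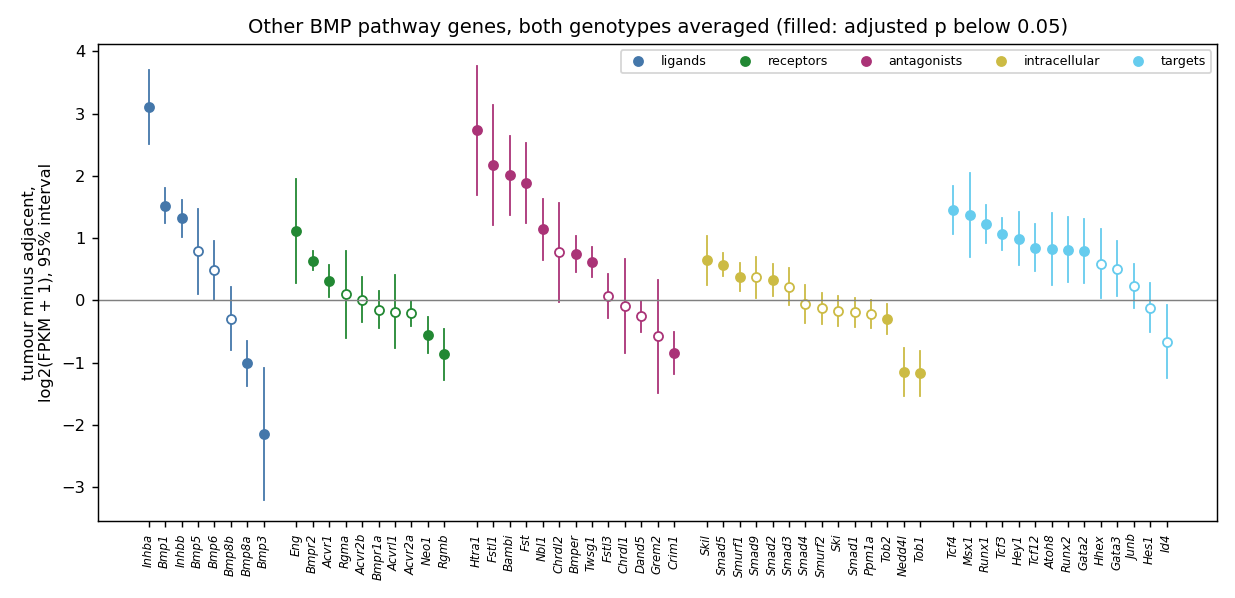
Tumour minus adjacent difference in log2(FPKM + 1), averaged over genotypes, with the 95% interval of limma for every tested gene of the 5 pathway lists, sorted within its list; filled points have an adjusted p below 0.05. Inhba, Htra1, Fstl1 and Bambi lie highest and Bmp3 lowest, and of the filled genes Tob2 changes sign when protein-coding genes are rescaled.

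Likeness of pattern was measured as Pearson's correlation of log2(FPKM + 1) over the 12 libraries among 9575 protein-coding genes with a mean of at least 5 FPKM, and the genes highest for each member are named as a description only. For Grem1 they were Sod3 and Pdgfrb (0.98 for both), the latter one of the 12 fibroblast markers, and for Bmp4 Ccl21a and Gpx3 (0.98 for both). For Bmp2 they were the creatine transporter Slc6a8 (0.97) and the transglutaminase Tgm3 (0.96), and for Bmp7 Rrn3 and Cdh13 (0.98 for both). The Grem1, Bmp4 and Bmp2 pairs kept correlations of 0.95 to 0.99 in the deviations from group means, while those of Bmp7 were 0.72 and 0.74. For Id2 they were the survival gene Bcl2l1 (0.97) and the copper chaperone Atox1 (0.96), for Id3 Kpna4 (0.94) and Ints4 (0.93), and for Id1 Hoxa10 (0.91) and Mphosph8 (0.88). For Smad6 they were Ammecr1l (0.91) and Kdm5c (0.89), and for Smad7 Zfyve27 (0.89) and Trio (0.84). Smad6 and Smad7 were also like each other, with 0.84 over the libraries and 0.81 in the deviations.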

How the data were processed

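The deposited values were log2 of FPKM + 1 per transcript in 12 libraries, as the authors' table gives them. The submitters' processing notes name FastQC, STAR 2.5, Cuffnorm and GRCm38; the settings, annotation and scaling are not stated there. Libraries were strand-specific, from total RNA, per the labels' protocols. The log was undone and FPKM added up by gene over 118004 of 123062 transcripts that matched GENCODE M21 on GRCm38; the others held 4.36% to 7.44% of summed FPKM. FPKM carries no depth, so no count model was used.

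The test was limma 3.58.1 (R 4.3.3; trend, robust) on log2(FPKM + 1), pseudocount 1, with 1 mean for each of 4 groups, no block and 8 residual degrees of freedom, for 16970 genes with at least 1 FPKM in 3 or more libraries. Genes with an adjusted p (Benjamini-Hochberg over all genes of a contrast) below 0.05 are called. Differences are on this log2 scale and are understated for low genes.

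The members, gene lists and tests were chosen with earlier results of these data known. Named are all members, Trappc4, up to 3 called genes of each pathway list and contrast with the largest difference, and the 2 genes most like each member. Bmpr1a, Smad1, Inhbb, Bmp8a, Id4, Nog, Chrd and Tob2 were named with their values seen where this rule did not take them. Alternatives changed the pseudocount, filter, scaling, gene value, groups fitted, variance model, block and libraries.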

Additional observations from a re-analysis of the deposited data

How the results depend on the processing

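Read depth is unknown, 3 libraries a group leave wide intervals, and the deposited scaling fixes the centre of all genes. Over 1193 values of the members under alternatives, 1110 kept direction and side of the threshold, 49 changed sign, 21 passed the threshold anew and 13 lost it. The count of members called in flox mice was 2, where 36.3% of all genes were called. It became 4 with quantile normalization (35.8%), 6 with protein-coding genes rescaled (48.7%) and 5 with only the groups compared (37.2%). With single libraries left out it ran from 1 to 3, and the share of all genes from 22.9% to 34.8%. The averaged count, 5 (50.6% of all genes), became 3 with the fibroblast level as a covariate (33.3%). With single libraries left out it ran from 4 to 6 (44.1% to 50.8% of all genes). The covariate and the fit without flox tumours 1 and 2 were both chosen after seeing the data. That fit leaves 1 flox tumour, assumed to vary like the other groups, so no count is given for it. In it Bmp4, Grem1 and Id3 were no longer called with the genotypes averaged, at differences of 0.97, 1.77 and 0.69. The cause of these changes was not tested.

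Whether the replicate numbers pair the libraries could not be settled from the values. Deviations of same-numbered tissues had correlations from -0.19 to 0.19. Of 12 libraries, 6 were most like the other tissue's library with their own number. Deviations from means of 3 libraries cannot show that a pairing is absent, and the code stem is shared by 5 of 6 same-numbered pairs. A replicate block by number or description code as a random term left the counts at 2 and 5. The shared code stem as a fixed term gave 5 members called in flox mice, adding Bmp4 (adjusted p = 0.0101), Grem1 (0.0190) and Id3 (0.0373), by limma. With the fixed term 35.1% of all genes were called in flox mice, 3.84% in ΔIEC mice and 36.7% averaged. In the main fit these shares were 36.3%, 29.4% and 50.6%.

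Signs turned as follows, in log2 units. Rescaling gave Smad6 0.10 (flox), 0.013 (ΔIEC) and 0.059 (averaged), Smad7 0.29 (flox) and 0.14 (averaged), and Id1 -0.024 between genotypes in tumours. The median tumour difference of all genes was then 0.36 (flox), 0.22 (ΔIEC) and 0.29 (averaged). Quantile normalization gave Smad7 0.029 in flox mice and Id1 -0.062 between genotypes in tumours. Id2 between genotypes, averaged, was -0.0042 with a pseudocount of 0.1 and -0.013 with median centring. Without flox tumours 1 and 2, Smad6 was 0.036 between genotypes in tumours and the Grem1 interaction 0.067. With the fibroblast covariate, flox differences were -0.0060 for Bmp4, -0.0035 for Grem1, 0.033 for Smad6 and 0.34 for Smad7, the averaged Smad7 difference was 0.16, the Grem1 interaction 0.30, and the genotype differences in adjacent colon -0.040 for Grem1 and 0.048 for Smad7.

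With single libraries left out, genotype differences in adjacent colon ran from -0.070 to 0.79 (Bmp2), -0.42 to 0.055 (Bmp7), -0.37 to 0.16 (Smad7), -0.24 to 0.28 (Id1) and -0.25 to 0.019 (Id3). In tumours they ran from -0.28 to 0.13 (Bmp2), -0.53 to 0.79 (Grem1), -0.086 to 0.12 (Id1) and -0.38 to 0.24 (Id3). Averaged, they ran from -0.077 to 0.35 (Bmp2), -0.11 to 0.15 (Id1), -0.11 to 0.17 (Id2) and -0.25 to 0.056 (Id3). The Grem1 interaction ran from -1.76 to 0.071, and flox tumour differences from -0.28 to 0.13 (Smad7) and -0.021 to 0.50 (Id1).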

Other observations

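Genes of the TGF-beta branch, which shares Smad4 and Smad7 with BMP signalling, were also higher in tumours: of 11 listed and tested, 9 were called higher and 0 lower with the genotypes averaged (median log2 difference 0.72), 9 in flox mice and 4 in ΔIEC mice, where 24.2%, 16.6% and 13.9% of all genes were called higher. Without flox tumours 1 and 2 the averaged median of the list was 0.66. With the fibroblast level as a covariate 2 were called higher and 1 lower (15.6% and 17.7% of all genes). Markers of macrophages (8 of 10 called higher) and neutrophils (7 of 8) were higher in the same averaged comparison, and 11 of 12 epithelial markers were called lower, where 26.4% of all genes were. The part of these cell types in the members' differences was not tested.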
